A study of Mus musculus with 8 samples.

Results

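MHC class II molecules are pairs of an alpha and a beta chain that show peptides from engulfed proteins to CD4 T cells. In mouse the I-A molecule is built from H2-Aa, the alpha chain, and H2-Ab1, the beta chain. New chains pair in the endoplasmic reticulum with Cd74, the invariant chain, which blocks the peptide groove and steers the complex to endosomes, and there cathepsin S (Ctss) makes the late cuts that leave only a short Cd74 fragment in the groove for H2-DM to remove. In liver, class II is best known from Kupffer cells, dendritic cells, B cells and sinusoidal endothelial cells, and interferon-γ induces it through the co-activator Ciita. These 4 genes were chosen by gene symbol for their place in this pathway, with the authors' comparison of the diets in view, and all 4 had a line among the 7500 genes of the deposited table.

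The table came from ribosome profiling of liver, in which the fragments of mRNA shielded by ribosomes are sequenced and counted on coding sequences. Male FVB/N mice were kept for 6 weeks on a Se-deficient torula yeast diet, with no Se added (0 Se) or with 0.1 ppm Se added as sodium selenite (0.1 Se). Each diet had 2 mice and 4 libraries, and the mouse numbers were not shared by the diets. For each gene the table holds a length, the authors' mean abundance over the libraries of both diets as log2 CPM, where CPM relates the reads of a gene to the total reads of a library, and the result of the authors' own comparison of the diets. That comparison was not used, so no difference between 0 Se and 0.1 Se is given here, and every level below is a mean over both diets. No values of single mice or libraries were used, so no SD or n stands beside a level, depth is unknown, and whether neighbours in an order differ beyond the spread between mice was not tested.

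All 4 genes were translated at levels above most genes of the table. To compare genes, the CPM of each was divided by its deposited length, giving a footprint density in CPM per kb, and the median density over the 7500 genes was 11.3 CPM per kb with quartiles of 3.80 and 37.5. Cd74 had the highest density of the 4 genes at 613 CPM per kb, followed by H2-Aa at 150.0, H2-Ab1 at 124 and Ctss at 81.6. Cd74 thus stood at 54.4 times the median density and Ctss at 7.24 times. The 4 genes held 0.0882% of the CPM summed over all lines.

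**Figure D1:**
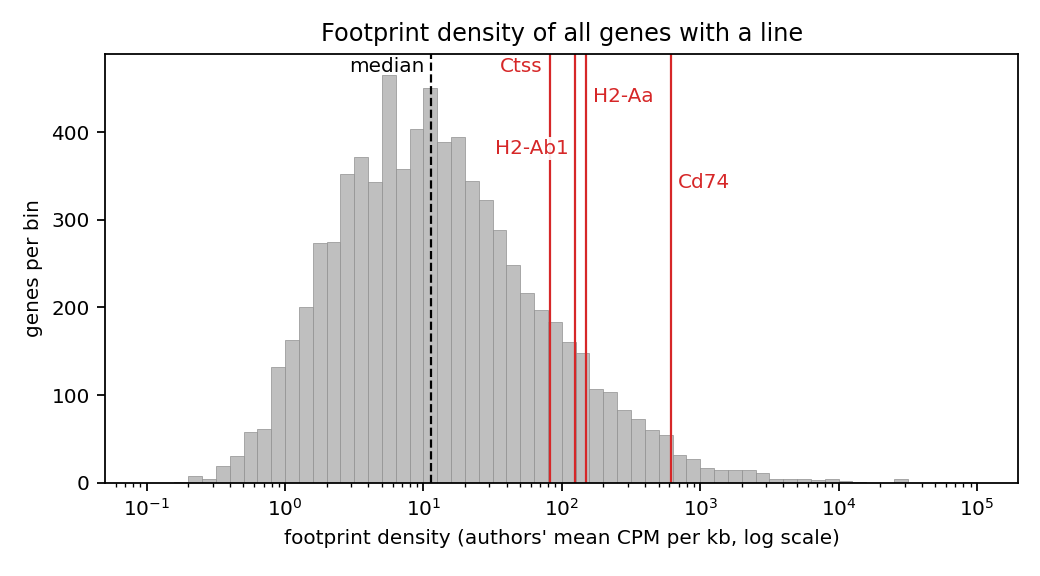
Histogram of footprint density over the 7500 genes of the table (x axis, the authors' mean CPM per kb, log scale; y axis, genes per bin). The red lines mark Ctss at 81.6, H2-Ab1 at 124, H2-Aa at 150.0 and Cd74 at 613 CPM per kb, all to the right of the dashed median at 11.3.

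The chains are described first, before Cd74 and Ctss. H2-Aa had an authors' mean log2 CPM of 6.74 over a deposited length of 711 bases, and 90.9% of genes had a lower density. H2-Ab1 had an authors' mean log2 CPM of 6.52 over 738 bases, and 89.4% of genes had a lower density. The density of the alpha chain was therefore 1.21 times that of the beta chain, the smallest ratio between any 2 of the 4 genes.

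On the mm9 build, which GENCODE vM1 annotates as NCBIM37, H2-Ab1 spans bases 34400154 to 34406363 of chromosome 17 on the plus strand and H2-Aa bases 34406276 to 34424772 on the minus strand. The pair converge, and their gene models share 88 bases at their ends. The longest coding transcript of H2-Aa covers only bases 34419689 to 34424772 and does not reach the shared bases, which in H2-Ab1 lie past the coding part. In these transcripts 6 of 6 exons of H2-Ab1 and 4 of 5 exons of H2-Aa carry coding sequence, and the coding parts lie 14.1 kb apart. The 8 class II genes placed on this chromosome, these included, fall between bases 34229285 and 34453144, a stretch of 224 kb.

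The chains are variable between mouse strains, and the reference carries the alleles of C57BL/6J whereas FVB/N carries another haplotype of this region. Footprints with more than 2 mismatches to the reference were not aligned, and how far this lowered the levels of H2-Aa and H2-Ab1 was not tested. Within the reference, 10.5% of the 30-base windows of the H2-Ab1 coding sequence matched a transcript of another gene with up to 2 mismatches, 80 of the 81 windows in H2-Eb1, the beta chain of the I-E molecule. For H2-Aa the share was 0.943%, with 7 windows in H2-Oa. Only uniquely aligned footprints were kept, so footprints of matching windows may have been left out, more in H2-Ab1 than in H2-Aa. How far this raised the ratio of 1.21 between the chains was not tested. H2-Eb1 had no line.

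Promoter windows are shown for H2-Aa, Ctss and H2-DMb1, a class II gene outside the 4. They are shown because most class II genes with a window share a short stretch in front of their start sites. That stretch played no part in choosing the 4 genes. Each window runs from 250 bases before to 50 bases after a RefSeq start site on GRCm38.p6, 5′ to 3′ along the gene, and 2 of the 4 genes, H2-Aa and Ctss, had an entry in the sequence table used. Capitals mark matches to TGATTGG, the core of the Y box that NF-Y binds, to TGACGTCA, a cAMP response element, and to the core of the interferon-stimulated response element, GAAA repeated after any 2 bases. These motifs were picked after the sequences were seen, and both strands were searched. The windows are chr17:34287774-34288073 on the minus strand for H2-Aa, chr17:34152941-34153240 on the plus strand for H2-DMb1 and chr3:95526536-95526835 on the plus strand for Ctss.
H2-Aa: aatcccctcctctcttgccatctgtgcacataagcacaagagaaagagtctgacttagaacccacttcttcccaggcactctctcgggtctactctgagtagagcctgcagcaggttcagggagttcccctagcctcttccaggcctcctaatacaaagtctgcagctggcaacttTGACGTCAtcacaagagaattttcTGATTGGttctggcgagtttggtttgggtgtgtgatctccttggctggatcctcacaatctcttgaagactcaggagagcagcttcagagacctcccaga
H2-DMb1: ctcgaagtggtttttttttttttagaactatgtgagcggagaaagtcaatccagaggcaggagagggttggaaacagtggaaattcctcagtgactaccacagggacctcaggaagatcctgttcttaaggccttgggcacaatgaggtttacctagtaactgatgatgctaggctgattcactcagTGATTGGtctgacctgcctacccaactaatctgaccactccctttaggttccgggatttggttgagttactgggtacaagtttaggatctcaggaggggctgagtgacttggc
Ctss: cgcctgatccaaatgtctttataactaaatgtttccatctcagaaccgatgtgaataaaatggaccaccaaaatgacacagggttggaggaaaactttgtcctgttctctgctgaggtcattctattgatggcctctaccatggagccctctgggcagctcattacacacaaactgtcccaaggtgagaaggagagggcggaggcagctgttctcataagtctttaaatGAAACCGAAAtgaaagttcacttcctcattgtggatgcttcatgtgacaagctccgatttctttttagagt

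The Y box core stood in 7 of the 8 class II genes with a window, namely H2-Aa, H2-DMb1, H2-DMb2, H2-Eb1, H2-Eb2, H2-Oa and H2-Ob. H2-DMa was the exception, with windows at chr17:34122582-34122881 and chr17:34125268-34125567. The absence holds for these H2-DMa windows only, and the H2-DMa gene start annotated on mm9 was not searched. The Y box core was found in 7.82% of all 32851 promoter windows. All 7 matches lay on the strand of the gene, starting 45 to 102 bases before the start site, and in H2-Aa the distance was 50 bases. Near matches to the motifs were not searched. Of the class II genes with a window, H2-Aa alone held TGACGTCA, the cAMP response element, 74 bases before its start site. That motif was held by 1.79% of all windows. The Ctss window lacked both and held the interferon-stimulated response element core 21 bases before the start site, as did 3.44% of all windows. A match is a stretch of letters and was not measured as a binding site, and footprints do not measure promoters.

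Cd74, the chaperone of the chains, was the highest of the 4 genes. Its authors' mean log2 CPM was 8.90 over 780 bases, and 97.8% of genes had a lower density, which placed it at rank 164 of 7500. Cd74 density was 4.09 times that of H2-Aa and 4.93 times that of H2-Ab1, and 2.23 times the density of both chains summed. Cd74 is also made without class II partners, as a receptor for the cytokine Mif, and footprints do not separate the uses of the protein.

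Cd74 lies at bases 60963502 to 60972300 of chromosome 18 on mm9, plus strand, with 9 exons in its longest annotated coding transcript. GENCODE vM1 gives it coding sequences from 648 to 840 bases. The deposited length was 60 bases below the longest, so the counts were set against the long form, which includes a thyroglobulin-like domain that the short form lacks. Divided by the length of the short form in the same way, the density would be 813 CPM per kb, and the order of the 4 genes would be unchanged. Of its 30-base windows 0.986% matched another gene with up to 2 mismatches, all 8 of them in Nid2, a basement membrane protein.

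Ctss, the protease, was the lowest of the 4 on every scale tried. Its authors' mean log2 CPM was 6.31 over 972 bases, and 85.3% of genes had a lower density. H2-Ab1, the nearest of the other genes, had 1.52 times the density of Ctss. Ctss lies at bases 95330708 to 95360325 of chromosome 3 on mm9, plus strand, with 8 exons that all carry coding sequence, and 0% of its windows matched another gene.

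Beyond the chains and Cd74, the peptide-loading genes of the class II list lay far lower. Of its 12 symbols 5 had a line, and the other 2 were H2-DMa and H2-DMb1, the chains of the H2-DM molecule that exchanges the Cd74 fragment for peptide. H2-DMa had a density of 8.82 CPM per kb and H2-DMb1 of 4.79, both under the median of the table. H2-Aa density was 17 times that of H2-DMa and 31.3 times that of H2-DMb1. The value of H2-DMb1 is uncertain, because 82.4% of its windows matched H2-DMb2 with up to 2 mismatches. Only uniquely aligned footprints were kept, so footprints of such windows may have been left out. How far this lowered the density of H2-DMb1, and its place under the median, was not tested. H2-Eb1, H2-Eb2, H2-Ea under either of its symbols, H2-DMb2, H2-Oa and H2-Ob lacked a line, so no level is given for them.

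The factors that switch class II genes on were translated at low levels. Of 7 listed genes 5 had a line, with densities from 1.2 to 12.1 CPM per kb, and only Nfyc was above the median of the table. Ciita, the co-activator on which class II transcription depends, had an authors' mean log2 CPM of 2.03 and the lowest density of the 5, 1.2 CPM per kb, with 5.95% of genes lower. Rfx5 and Rfxank, subunits of the complex at the X box of class II promoters, had densities of 2.40 and 6.86 CPM per kb. Nfya and Nfyc, subunits of NF-Y, had 6.43 and 12.1 CPM per kb. Rfxap and Nfyb had no line. The authors' log2 CPM of such low genes contains a small count that the tool adds, which raises low values more than high ones.

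The endosomal genes form the third group, in which Ctss was the second lowest. Of 13 listed genes 8 had a line, and all 8 were above the median density of the table. Ctsl, a cysteine protease that acts on the invariant chain in thymic epithelium, had 601 CPM per kb, or 7.36 times the density of Ctss, and Ctsd, an aspartic protease, had 403 CPM per kb. Ctsh was at 145, Sppl2a, which removes the last membrane stub of Cd74, at 116, Lgmn, an asparaginyl endopeptidase, at 109 and Ctsc at 102 CPM per kb. Ifi30, a thiol reductase that opens disulphide bonds of antigens, was the only gene of the group below Ctss, at 25.6 CPM per kb. The other cathepsins of the list are lysosomal proteases of many cell types, so their footprints in whole liver are not those of antigen-presenting cells alone. Ctsb, Ctsz, Cst3, Cst7 and Cstb had no line.

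**Figure D2:**
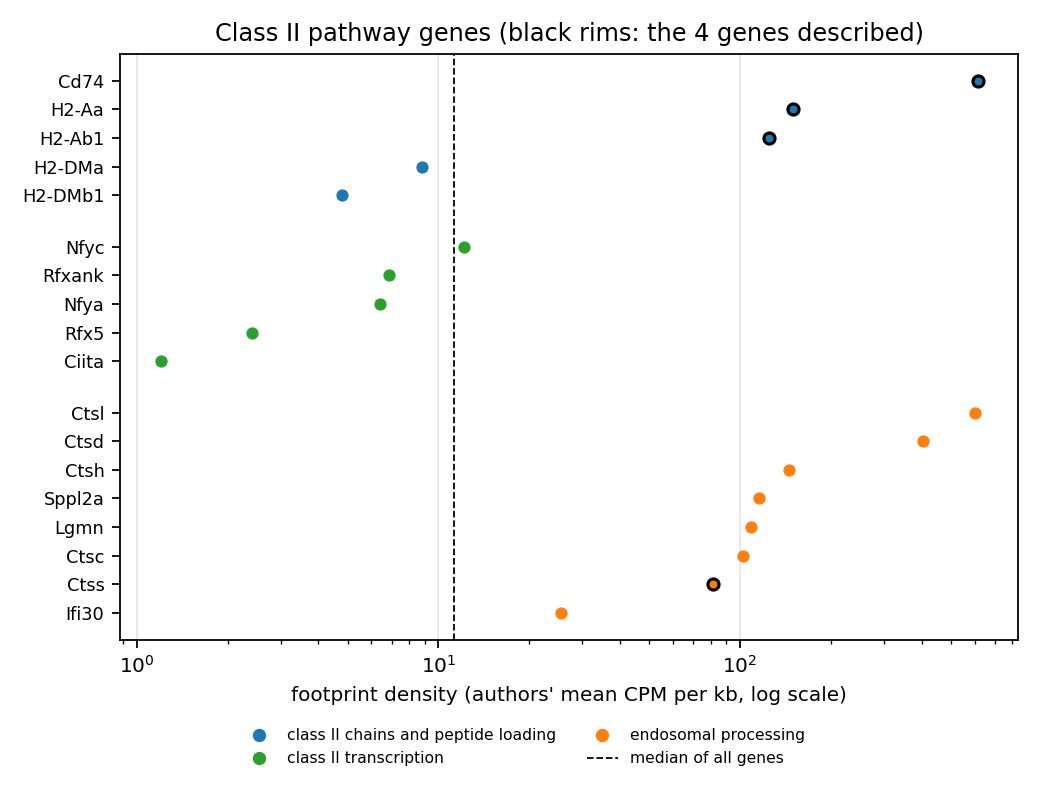
Footprint density (x axis, the authors' mean CPM per kb, log scale) of each class II pathway gene with a line (y axis), grouped by role, with black rims on the 4 genes described and the median of all genes dashed. Cd74 (613), H2-Aa (150.0) and H2-Ab1 (124) lie above the other chain and loading genes (4.79 and 8.82), and Ctss (81.6) lies between Ctsc (102) and Ifi30 (25.6).

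Class I molecules, which show peptides from inside the cell on nearly all cell types, gave a scale for these levels. Of 21 listed class I genes 18 had a line. B2m, the light chain of all class I molecules, had 14553 CPM per kb, 23.7 times the density of Cd74. Among the loading chaperones Calr, Pdia3 and Canx had 2443, 818 and 472 CPM per kb. H2-Q10, a secreted class I protein of hepatocytes, had 620 CPM per kb and H2-K1, a classical heavy chain, 346, which was 2.31 times the density of H2-Aa. H2-D1, another classical heavy chain, named after its value was seen, had 8.98 CPM per kb, under the median of the table, and H2-K1 had 38.6 times its density. These 3 values are uncertain, since 68.2% of H2-Q10 windows, 77.1% of H2-K1 windows and 86.2% of H2-D1 windows matched another gene with up to 2 mismatches. Footprints with more than 2 mismatches to the reference were not aligned, and only unique alignments were kept, so footprints of matching windows may have been left out. How far these 2 limits lowered the 3 values, and the place of H2-D1 under the median, was not tested. Over the list the median was 69.9 CPM per kb, and 4 of the 18 genes were above Cd74 and 8 above H2-Ab1. The 4 were B2m, Calr, Pdia3 and H2-Q10, and footprints do not separate class I loading from other uses of the chaperones. H2-Q10 was only just above Cd74, at 620 against 613 CPM per kb, and no alternative length was tried for the class I genes.

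Markers of liver cell types, with or without known class II, gave the next scale. Hepatocyte markers had a line for 7 of 8 genes, from 194 to 51734 CPM per kb, and 5 of the 7 were above Cd74. The highest were Alb at 51734, Ttr at 28165 and Fabp1 at 27100 CPM per kb. Kupffer cell and macrophage markers had a line for 13 of 15 symbols, Adgre1 being the newer name of Emr1, with densities from 2.78 to 171 CPM per kb and a sum of 614. The highest were Clec4f at 171, Cd5l at 112 and C1qa at 87.1 CPM per kb. Clec4f, a lectin of Kupffer cells, thus had 1.14 times the density of H2-Aa, and Cd74 had 3.58 times the density of Clec4f. Sinusoidal endothelial markers all had a line, 9 of 9, from 4.84 to 135 CPM per kb, led by Clec4g at 135, Fcgr2b at 42.6 and Mrc1 at 34.2. Stellate cell markers had a line for 6 of 6, from 2.54 to 208 CPM per kb, led by Dcn at 208, Ecm1 at 85.2 and Lrat at 13.6.

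Of the other cell types with a marker list, dendritic cells had a line for 0 of 10 genes and B cells for 0 of 8. Among 8 T and NK cell markers Cd4 alone had a line, at 1.71 CPM per kb. Absence from the table is no measure of a level, since Cps1, an abundant urea cycle enzyme of hepatocytes, had no line either. Which cells the footprints of the 4 genes came from was not tested. In whole liver, fewer cells of a type and less RNA per cell cannot be told apart.

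**Figure D3:**
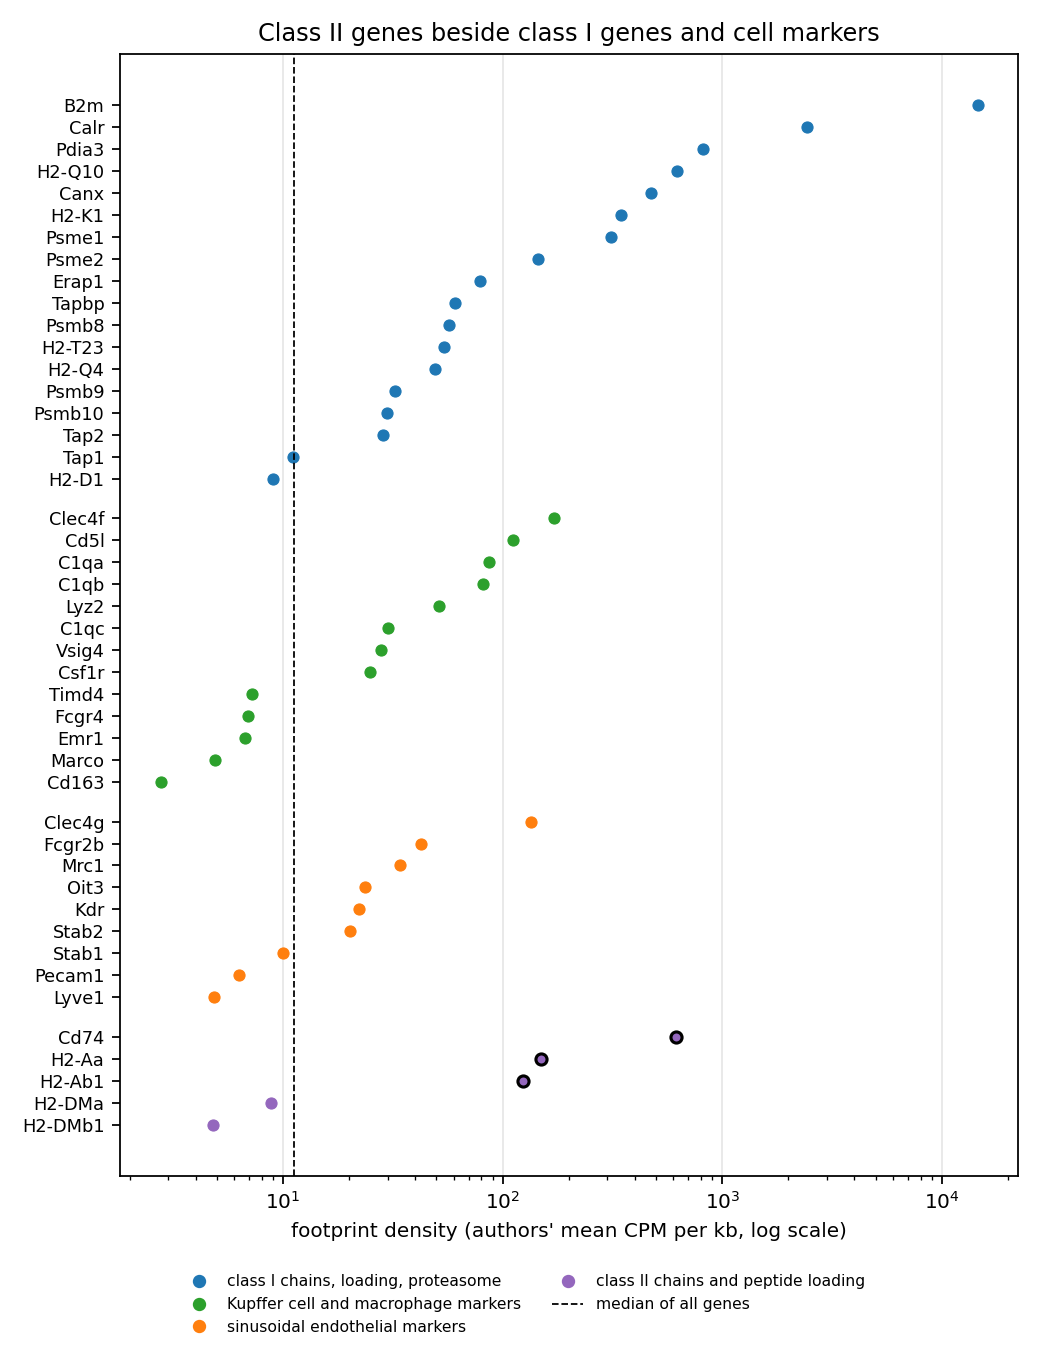
Footprint density (x axis, the authors' mean CPM per kb, log scale) of each gene with a line (y axis) in the class I list, the Kupffer cell and macrophage markers, the sinusoidal endothelial markers and the class II chain and loading list, with black rims on Cd74, H2-Aa and H2-Ab1 and the median of all genes dashed. H2-Aa and H2-Ab1 lie between Clec4f (171) and Cd5l (112), and Cd74 (613) lies above every marker of both cell types.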

How the data were processed

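Livers of 4 mice gave 8 ribosome profiling libraries, grouped by diet from the sample titles. According to the study's methods, the authors trimmed adapters, removed ribosomal RNA reads and aligned the rest with Bowtie, uniquely and with up to 2 mismatches, to the longest RefSeq isoform of each gene (mm9), without the first 15 and last 3 codons. The authors passed genes over 1 CPM in at least 3 samples to edgeR. The versions of these tools are not stated there. The log2 CPM column holds the deposited values of the authors, a mean abundance over all libraries. The authors' comparison of the diets fills 4 further columns (fold change, its log2, p-value and adjusted p-value), which were not used.

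The planned test between the diets needs counts per library and was not run. Density was 2 to the power of the log2 CPM, per 1000 bases of deposited length, with no filter. Of 7260 genes matched by symbol to GENCODE vM1, 84.2% had a deposited length 60 bases below their longest coding sequence, or 20 codons, and 3 genes had one 54 bases below, the length of the codons stated. The deposited length was used as it stands, and the reason for the mismatch was not tested. A percentile is the share of all 7500 genes with a lower density. Windows of 30 bases of each longest coding sequence were searched in all GENCODE vM1 coding transcripts with bwa 0.7.19, allowing 2 mismatches. Code for percentiles and windows was tested on simulated data. Tables were handled in Python 3.11.15 with pandas 2.3.3.

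Named genes were the 4 genes always, every gene with a line of the class II chain, transcription and endosomal lists, up to 6 genes of highest density of the class I list and up to 3 of each marker list. H2-D1 of the class I list was named beyond this rule, after its value was seen. The genes and lists were chosen with earlier results of these data known.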

Additional observations from a re-analysis of the deposited data

How the results depend on the processing

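No test was run, so these are values without a threshold, and the order Cd74, H2-Aa, H2-Ab1, Ctss held in every alternative named here. With the annotated coding length less the first 15 and last 3 codons, densities were 608 CPM per kb for Cd74, 149 for H2-Aa, 123 for H2-Ab1 and 81.1 for Ctss. With the full annotated coding length, an alternative added after seeing the data, they were 569, 138, 115 and 76.9. With the shorter Cd74 coding sequence, also added then, Cd74 was at 813.

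Percentiles in the order Cd74, H2-Aa, H2-Ab1, Ctss were 96.7, 86.4, 84.1 and 77.9 among 4998 genes at or over 3 log2 CPM, then 97.3, 88.5, 86.5 and 83.6 among genes of length within a factor of 2. For log2 CPM not divided by length they were 96.96, 88.0, 86.5 and 84.8. Summed densities of the lists were 901 CPM per kb for class II chains and loading, 29.0 for transcription, 1583 for the endosomal genes and 20120 for class I. The medians in their place were 124, 6.43, 112 and 69.9. Class I, with the highest sum of these lists, had a lower median than class II chains and loading. The class II median is the density of H2-Ab1, 1 of the 4 chosen genes, over 5 genes with a line of 12 listed. The class I median covers 18 genes of 21 listed, so these medians do not compare the 2 pathways.

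Alternatives that need counts per library (each library left out, another normalization or test, a count filter) were left out for that reason. Depth is unknown, which leaves the precision of each level unknown. No paired analysis was possible because mouse numbers differ between diets and only pooled values were used.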
